A study of Mus musculus with 2 samples.

Results

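High mobility group (HMG) proteins were examined in B cells of mouse spleen as 7 genes of the HMGN, HMGB and HMGA families, namely Hmgn1, Hmgn2, Hmgn3, Hmgb1, Hmgb2, Hmgb3 and Hmga1. The members were taken as every probe set that the platform annotation assigns to a single gene with one of these symbols, which gave 9 probe sets of 4 genes, of 12393 genes with such a probe set in all. Hmgn1 had 4 of these probe sets, Hmgn3 and Hmgb2 had 2 each and Hmgb3 had 1. Hmgn2 and Hmgb1 appeared only on probe sets shared with other gene names, 1 and 5 respectively, and are given no value. No probe set was annotated to Hmga1, which was not analysed here. The genes were chosen by their signals in the follicular and marginal zone arrays described here, so every count below describes the arrays and supports nothing further.

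The samples were 1 array of follicular B cells, which recirculate and make up most B cells of the spleen, and 1 array of marginal zone B cells, which lie beside the marginal sinus and respond early to antigens in blood. Both came from wild-type female C57BL/6 mice, with 3 spleens named for each sample, and B cells were enriched with beads against B220 before sorting. Follicular cells were gated as high for CD23 and intermediate for CD21, and marginal zone cells as intermediate for CD23 and high for CD21. The labels give no age and leave unsaid if the populations share animals, and sorted cells were pooled before lysis. About 100 ng of total RNA per sample was amplified and labelled in 2 cycles, so the signal carries the bias of that amplification. With 1 array in each group there was no replicate error, no test could be made, and differences are given by size with 2-fold as the threshold. A bulk signal cannot tell fewer cells with a transcript from less transcript per cell.

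HMG proteins are small, abundant non-histone proteins that bind chromatin without reading a long DNA sequence. HMGN proteins bind the nucleosome core and loosen its compaction by linker histones, HMGB proteins bend DNA through a pair of HMG boxes and carry an acidic tail, and HMGA proteins hold the narrow groove of AT-rich DNA with AT hooks. In lymphocytes the family is best known for HMGB1 and HMGB2, which bend DNA for the RAG recombinase that joins antigen receptor segments. HMGB1 also leaves damaged cells and then acts as an alarm signal on receptors that include Toll-like receptors.

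Promoters are shown for Hmgn1, Hmgb2 and Hmgb3, the members with both a measured probe set and an entry in the promoter table; 6 of the 7 members matched an entry, all but Hmgn3. The sequences are RefSeq's on GRCm38.p6 and cover the 250 bases before the annotated gene start, 5′ to 3′ on the gene's strand. Capitals mark the CCAAT box, the letters CCAAT or their reverse complement on the other strand. The GC box core (GGGCGG), E-box core (CACGTG) and TATA box core (TATAA) were also searched and are not marked. The Hmgn1 window is chr16:96127726-96127975 on the minus strand, the Hmgb2 window chr8:57511593-57511842 on the plus strand and the Hmgb3 window chrX:71555667-71555916 on the plus strand.
Hmgn1: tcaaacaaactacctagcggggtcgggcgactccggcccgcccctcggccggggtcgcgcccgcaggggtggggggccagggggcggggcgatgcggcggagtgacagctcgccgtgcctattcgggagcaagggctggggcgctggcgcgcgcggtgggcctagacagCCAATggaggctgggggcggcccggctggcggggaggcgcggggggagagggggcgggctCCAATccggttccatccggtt
Hmgb2: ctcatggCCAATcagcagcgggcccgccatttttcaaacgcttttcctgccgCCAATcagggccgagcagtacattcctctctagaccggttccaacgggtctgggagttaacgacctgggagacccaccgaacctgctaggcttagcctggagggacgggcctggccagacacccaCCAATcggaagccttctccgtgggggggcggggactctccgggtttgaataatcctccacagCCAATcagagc
Hmgb3: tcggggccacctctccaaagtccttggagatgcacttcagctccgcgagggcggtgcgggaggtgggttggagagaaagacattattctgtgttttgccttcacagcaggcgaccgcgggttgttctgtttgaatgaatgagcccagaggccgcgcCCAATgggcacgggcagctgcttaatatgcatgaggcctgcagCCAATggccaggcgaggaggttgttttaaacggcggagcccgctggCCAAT

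The window of Hmgb2 held 4 CCAAT boxes, which began 243, 198, 73 and 11 bases before the start. Hmgb3 held 3, at 94, 51 and 5 bases, and Hmgn1 held 2, at 81 and 21 bases. All 9 read CCAAT on the strand of the gene. Of 32851 windows of the same length in the promoter table, 33.8% held at least 1 such box, 10.1% at least 2 and 2.79% at least 3. GC box cores numbered 4 for Hmgn1, 1 for Hmgb2 and 1 for Hmgb3, and 32.7% of all windows held at least 1. Neither the E-box core nor the TATA box core was found in the windows of these genes. These genes are rich in G and C before their starts, with 76.0% for Hmgn1, 60.4% for Hmgb2 and 58.8% for Hmgb3, against a median of 52.4%. Over all members, 4 of the 8 windows in the table held a CCAAT box: those 3 and 1 of the 2 windows of Hmgb1, while the other Hmgb1 window, that of Hmgn2 and both of Hmga1 held none. A match is a run of letters and not a measured binding site.

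Hmgn3 encodes a nucleosome-binding protein made in several splice forms and studied in the brain, eye and pancreatic islets. It had much the higher signal in marginal zone B cells on both of its probe sets. The brighter probe set, 1434875_a_at, had scaled signals of 28.9 in the follicular and 333.7 in the marginal zone sample, an 11.5-fold ratio of signals (log2 3.53). The dimmer one, 1431777_a_at, had 6.77 and 72.2. Here the follicular signal lay under the floor of 12.7, the median of all signals on both arrays, below which MAS5 signals have no reliable order. Set against that floor, the marginal zone signal of the dimmer probe set was at least 5.70-fold higher (log2 2.51). The 2 probe sets have different probes, so their levels cannot be compared. Their log2 ratios lay 1.02 apart with the floor, where the lower one is a bound. Without the floor they were 3.41 and 3.53, but the first then rests on a follicular signal that has no reliable order.

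**Figure D1:**
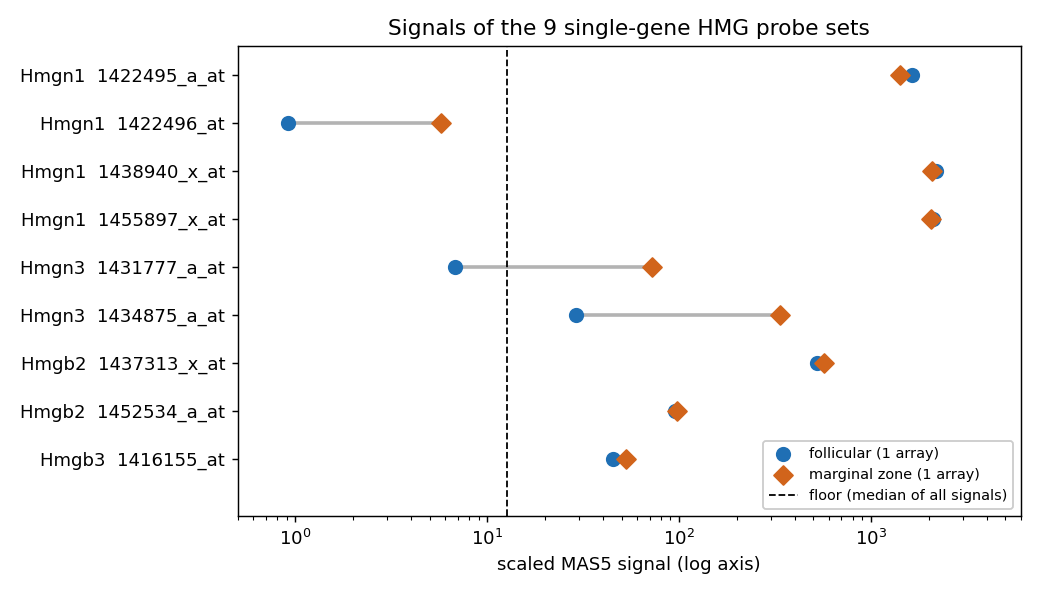
Scaled MAS5 signal (log axis, no unit) of the 9 single-gene probe sets in follicular (circles) and marginal zone B cells (diamonds), 1 array each, with the floor of 12.7 as a dashed line. The signals of both Hmgn3 probe sets lie far apart, the pairs of Hmgb2, Hmgb3 and the 3 bright Hmgn1 probe sets nearly coincide, and 1422496_at lies under the floor on both arrays.

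Among the 7695 genes with a signal above the floor on at least 1 array, each represented by its brightest probe set, Hmgn3 had rank 4 from the highest ratio of marginal zone over follicular signal. That ratio chose Hmgn3 for description, so the rank is not evidence of its own. The rank stayed between 3 and 8 under every other scaling, floor and probe set rule that gave Hmgn3 a value, except that with no floor it was 86, where ratios of dim genes enter unbounded. Scaling by 1 factor per array shifts all log2 ratios alike, so such settings could hardly change the rank. Under the 75th percentile as floor, a signal of 45.7, the dimmer probe set's log2 ratio was only 0.66, since its follicular signal is then raised to that floor; the brighter one was at 2.87.

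Of the 4 members measured, 1 passed 2-fold in the marginal zone direction, where 4.39% of all measured genes did. None (0 of 4) passed 2-fold in the follicular direction, where 4.86% of all genes did; 9.25% passed 2-fold either way. Counted as probe sets, 2 of 8 measured were past 2-fold in marginal zone cells, both of Hmgn3, beside 4.27% of all measured probe sets. With 4 genes and a choice made on these ratios, nothing is read from those shares. The other 6 measured probe sets ran from -0.21 to 0.22 on the log2 scale of marginal zone over follicular signal.

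**Figure D2:**
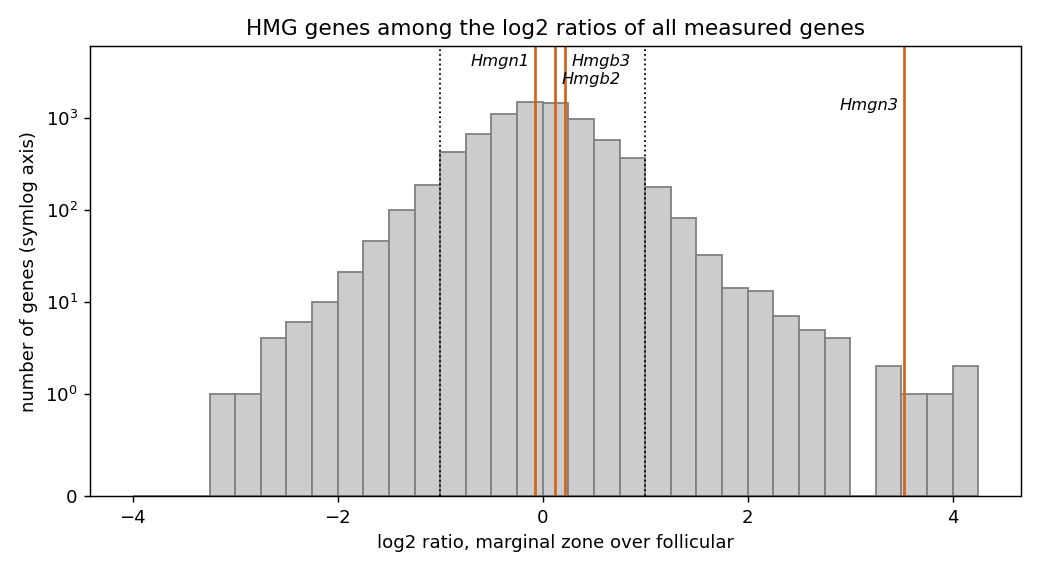
Number of measured genes (symlog axis) in bins of the log2 ratio (marginal zone over follicular), with the 4 HMG genes as vertical lines and 2-fold as dotted lines. Hmgn1, Hmgb2 and Hmgb3 lie at -0.07, 0.12 and 0.22, inside the densest bins, and Hmgn3 lies at 3.53 in the sparse right tail.

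Hmgn1, which binds the nucleosome core like Hmgn3 and counters linker histones, had bright and nearly equal signals in both populations. Its probe set 1438940_x_at had 2169 in follicular and 2065 in marginal zone cells, a ratio of 1.05 in favour of follicular cells. The probe set 1455897_x_at had 2105 and 2056, or -0.03 on the log2 scale, a value that became 0.02 when the arrays were scaled to the same median. The probe set 1422495_a_at had 1642 and 1417, 1.16-fold higher in follicular cells. These 3 probe sets thus spread over only 0.18 on the log2 scale. The remaining probe set, 1422496_at, had 0.91 and 5.74, both under the floor, and no ratio is given for it.

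Hmgn3 and Hmgn1 belong to the same family and stood apart in these arrays: the brightest probe set of one was at 3.53 and that of the other at -0.07 on the log2 scale. Hmgn5, an HMGN protein with a long acidic tail that was named after its values were seen, had signals of 187.3 and 142.4, 1.32-fold higher in follicular cells. Of the HMGN genes with a value, the higher marginal zone signal was therefore seen in Hmgn3 and not in Hmgn1 or Hmgn5. Whether these differences exceed variation between animals was not tested.

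Hmgb2, which is abundant in lymphoid and dividing cells, had close signals in both populations. Its probe set 1437313_x_at had 522.6 in follicular and 569.1 in marginal zone cells, 1.09-fold higher in the latter. The probe set 1452534_a_at had 94.9 and 96.9, a ratio of 1.02. Hmgb3, an X-linked HMGB gene known from blood-forming progenitors, had 45.3 and 52.8 on its single probe set, 1.17-fold higher in marginal zone cells. The log2 ratios of both genes kept their sign under each alternative that gave them a value, from 0.08 to 0.18 for Hmgb2 and from 0.18 to 0.27 for Hmgb3. These sizes are small beside the SD of 0.43 between probe sets of the same gene, over 2622 genes with several measured probe sets.

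The array design limits what can be assigned to single members. Of the 9 probe sets, 4 carry the suffix for probes common to several transcripts of the same gene and 3 the suffix for probes that partly match other sequences; the latter hold the brightest values of Hmgn1 and Hmgb2. Both Hmgn3 probe sets are of the first kind, so splice forms were not separated. RefSeq's gene table names 13 pseudogenes after Hmgb1 and 2 after Hmgn2, the genes that shared all their probe sets. It names 1 after Hmgb3 and 0 after Hmgn1, Hmgn3 or Hmgb2. These counts are of names only, and whether they bear on the shared probe sets was not tested.

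**Figure D3:**
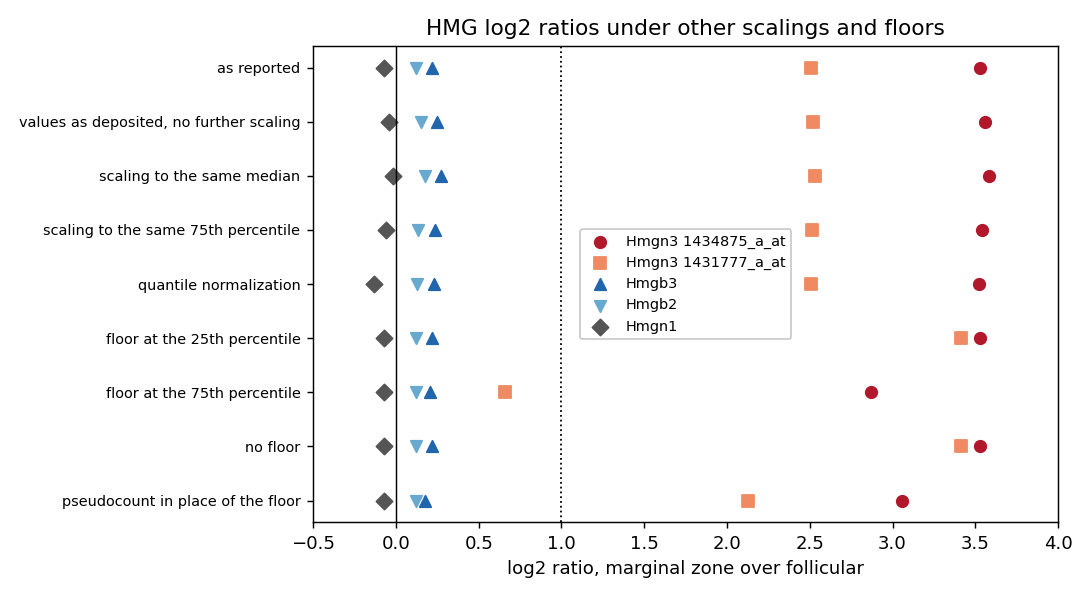
Log2 ratio (marginal zone over follicular) of the 2 Hmgn3 probe sets and of Hmgb3, Hmgb2 and Hmgn1 (brightest probe set), as reported and under 8 other scalings or floors; the dotted line marks 2-fold. Hmgn3 stays to the right of 2-fold except for its dimmer probe set at 0.66 under the highest floor, and the other genes stay near 0.

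Genes with a related fold or partner role were described from a list of 28, of which 18 were measured. Of these, 13 had the higher signal in follicular and 5 in marginal zone cells; 47.8% of all measured genes were higher in marginal zone cells. The median log2 ratio of the list was -0.27, beside -0.03 over all measured genes. Of its 18 ratios, 17 lay within 2-fold. The exception was Sox4, an HMG-box transcription factor of early B cells. Its brightest probe set had 60.4 in follicular cells and 7.03, under the floor, in marginal zone cells, a follicular excess of at least 4.77-fold. The 3 measured probe sets of Sox4 spanned -2.25 to -0.89 on the log2 scale, so not every one passed 2-fold. Next came Sox12, a close relative of Sox4, at 29.4 and 18.1, and Hmgxb4, an HMG-box protein, at 38.8 and 24.7, which were 1.62-fold and 1.57-fold higher in follicular cells. Rcor1, a corepressor that works with the histone demethylase of the HMG20 complex, had 33.2 and 53.8, with a ratio of 1.62 toward marginal zone cells on its brightest probe set. All 3 probe sets of Rcor1 together spanned -1.31 to 0.70 on the log2 scale, so they differ in sign. With Rcor1, 4 genes of the list had measured probe sets of both signs, so the counts of 13 and 5 depend on the choice of probe set.

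Linker histones, which HMGN proteins displace from nucleosomes, were nearly unmeasured. Of the 13 symbols listed, some of them older names of the same genes, 3 had a single-gene probe set and only H1f2 was above the floor. H1f2 had 1126 in follicular and 863.8 in marginal zone cells, 1.30-fold higher in follicular cells.

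Partners of HMGB proteins came from the SET complex, a DNA repair and chaperone complex that can hold HMGB2, and from V(D)J recombination. Rag1 and Rag2, the recombinase genes, were not above the floor on either array, and 6 of the 9 genes listed were measured. Nme1, a nucleoside diphosphate kinase of the complex, had 97.4 in follicular and 220.0 in marginal zone cells by its brightest probe set, 2.26-fold higher in the latter. Its 2 measured probe sets spanned 0.84 to 1.18 on the log2 scale, so not every one passed 2-fold. Anp32b, a histone chaperone, was 1.35-fold higher in marginal zone cells, while Set and Anp32a were 1.08-fold and 1.14-fold higher in follicular cells. The 3 measured probe sets of Anp32a spanned -0.81 to -0.19 on the log2 scale. Over these 6 genes the median log2 ratio was -0.00243. The sign of the list's median turned under 5 of 11 alternatives, which measured from 5 to 8 genes.

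Receptors and export factors of HMGB1 went both ways, 3 of 7 measured genes being higher in the marginal zone and 4 in the follicular sample. Over all measured genes, 47.8% were higher in marginal zone cells. Ly96, the partner of Toll-like receptor 4, had 15.7 and 38.2 on its 1 measured probe set, 2.44-fold higher in marginal zone cells. Its follicular signal lay near the floor of 12.7. Ly96 was the only one of the 7 past 2-fold, beside 9.25% of all measured genes past 2-fold either way. Ager, the receptor for advanced glycation end products, and Tlr4 itself were not above the floor on either array. Cd24a, a surface glycoprotein that binds HMGB1, had 1502 and 2225, 1.48-fold higher in marginal zone cells. Sirt1, a deacetylase, and Xpo1, the nuclear export receptor, were 1.69-fold and 1.35-fold higher in follicular cells.

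Proliferation genes were set beside Hmgb2, whose transcript is known to be high in dividing cells. Of 18 measured, 9 had the higher signal in each population and the median log2 ratio was 0.02. By the brightest probe set 2 of them were past 2-fold, both in the marginal zone sample, where 4.39% of all measured genes were. These were Mki67, at 9.40 and 50.1, and Ccna2, at 9.20 and 31.6, with both follicular signals under the floor. The other measured probe set of Ccna2 was at 0.20 on the log2 scale, within 2-fold. Mcm2 and Mcm3 were within 2-fold by their brightest probe sets but reached past it in follicular cells on others. The 2 measured probe sets of Mcm2 spanned -1.16 to -0.46 and the 5 of Mcm3 spanned -1.70 to 0.50. Mcm6, a subunit of the replicative helicase, was 1.83-fold higher in marginal zone cells, and Mcm5, another subunit, had 20.1 in follicular cells and 11.4, under the floor, in marginal zone cells.

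**Figure D4:**
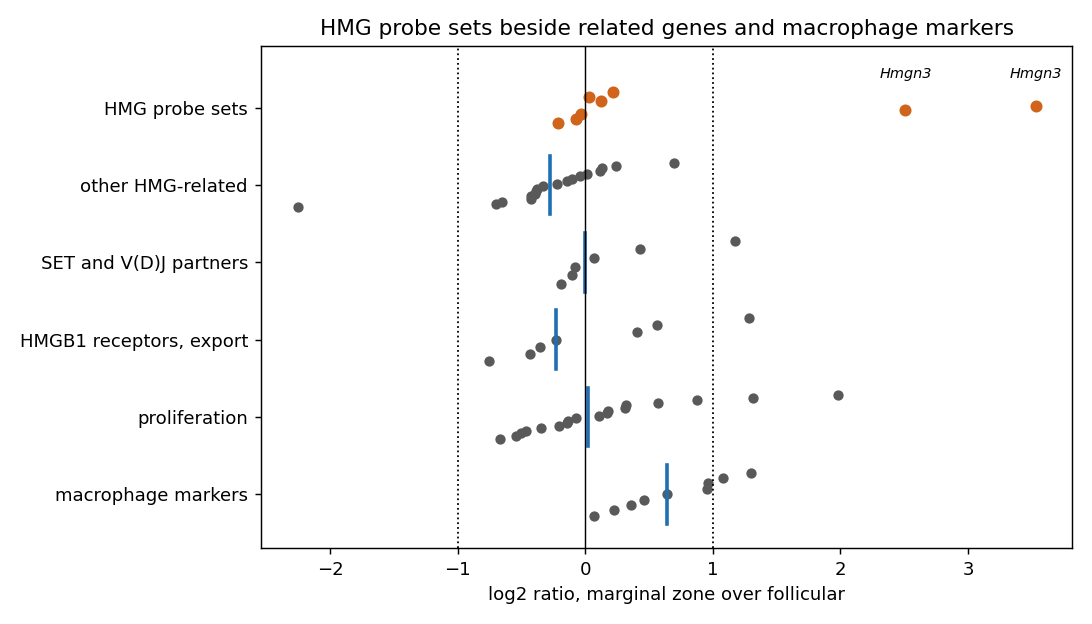
Log2 ratio (marginal zone over follicular) of the 8 measured HMG probe sets and of the measured genes of 4 related lists and the macrophage marker list, each point a probe set (top line) or gene, with list medians as bars and 2-fold as dotted lines. Signals under the floor are raised to it, so the Hmgn3 point at 2.51, Mki67 at 1.98, Sox4 at -2.25, 5 of the 9 macrophage markers and several other points are bounds, whose place among the points is not settled; the other Hmgn3 point lies at 3.53.

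The genes whose ratio was most like that of Hmgn3 were sought among 3102 genes above the floor on both arrays, with a signal of at least 45.7 on 1 of them and all measured probe sets of 1 sign. Likeness was the absolute difference of log2 ratios, and over 2 arrays it says only that the sizes are alike. Id2, an inhibitor of E-protein transcription factors, was nearest, at 31.9 and 325.0, a difference of 0.18. Cd1d1, which presents lipids, followed at 73.4 and 706.7 with a difference of 0.26, and then Cd36, a scavenger receptor for lipids, at 44.5 and 633.5 with a difference of 0.30.

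The sort was checked on its own genes. Fcer2a (CD23) had 726.8 and 89.6 and Cr2 (CD21) had 277.9 and 889.9, each on the side of its gate. Of 8 B cell markers 7 were measured, all above the floor on both arrays, with a median log2 ratio of -0.32: Blk, a kinase, was 2.20-fold higher in marginal zone cells, and Cd79b and Cd79a, the signalling chains of the antigen receptor, were 1.90-fold and 1.70-fold higher in follicular cells. Macrophage and monocyte markers were on the same side as Hmgn3: of 14 markers, 9 were measured and all 9 were higher in marginal zone cells. Their summed signal, taken before low values were raised to the floor, was 93.6 in follicular and 219.3 in marginal zone cells. Signals without a reliable order enter the follicular sum, so the size of this gap is uncertain. In 5 of the 9, among them Cd68 (1.21 and 19.8), C1qb (2.93 and 24.5) and Cd14 (2.43 and 14.8), the follicular signal lay under the floor, so their ratios are only bounded from below. Csf1r was at 17.3 and 42.5 by its brightest probe set, and its 3 probe sets had log2 ratios between 0.17 and 1.70. The list's median log2 ratio was 0.64 with the floor and 1.27 without it. No marker probe set was listed at 0, and C1qa, C1qc, Itgam, Fcgr1 and Marco were not above the floor on either array. The part of these cells in the Hmgn3 signal was not tested. Of 10 T cell markers 4 were measured, and 3 of them were lower in marginal zone cells: Zap70 at 47.2 and 20.0, Cd3e at 17.2 and 1.29 and Cd4 at 13.9 and 1.98, the last values of Cd3e and Cd4 being under the floor. The fourth, Cd2, was at 305.1 and 345.7 and carried most of the summed signals of 383.4 and 369.0. Plasma cell markers (5 of 6 measured, sums of 1030 and 1249 over brightest probe sets) went both ways. Sdc1 was at 68.3 and 4.35 by its brightest probe set, a follicular excess of at least 5.39-fold. Its 3 measured probe sets spanned -2.43 to -0.32 on the log2 scale. Prdm1 was at 12.7, barely above the floor, and 30.9, 2.43-fold higher in marginal zone cells. Xbp1 was at 396.6 and 659.0 by its brightest probe set, while its 4 measured probe sets spanned -0.98 to 0.73 and differ in sign. Irf4 was at 532.4 and 527.1 by its brightest probe set, and its 2 measured probe sets spanned -0.01 to 0.44. Xbp1 and Irf4 together carried most of both sums. Dendritic cell markers (3 of 7) summed to 32.7 and 47.4, and erythroid, platelet and granulocyte markers (4 of 12) to 50.4 and 38.2. The T cell, plasma cell and these last sums were likewise taken without the floor, and each list held at least 1 signal under it.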

How the data were processed

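Expression was measured on 2 single-channel Affymetrix arrays. The deposited table gives 1 linear intensity for each of 22626 probe sets and each array. Per the submitters' processing notes the authors made these intensities with MAS5, which combines perfect-match and mismatch probes; the sources used here state neither its version nor its scaling target, and detection calls were not used here. The deposited medians were 12.8 for follicular and 12.6 for marginal zone cells.

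The arrays were brought to a common mean, trimmed by 2% at each end, with factors of 1.01 (follicular) and 0.990 (marginal zone). For all log2 values, signals under the median of all scaled signals, 12.7, were raised to it. Printed signals and sums are those before that step. A probe set was measured when its higher signal exceeded this floor (12847 did), and each gene is represented by the measured probe set whose mean log2 signal was highest. Against the floor a fold is written "at least". The number of arrays limits the precision, and no test, error or p-value can be given. Of all probe sets, 20380 had 1 gene in the platform annotation, 691 had several and 1555 were not listed; 20351 of the first were found by Entrez identifier in RefSeq's table of GRCm38.p6. Coordinates are given only for promoter sequences.

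The members and the 5 related and 7 marker lists were chosen with earlier results of these data known. Named are all member probe sets and up to 4 genes of each related list with the largest absolute log2 ratio. Also named are the 3 genes nearest Hmgn3 in ratio. Genes named because they were not above the floor, Hmgn5, Mcm2, Mcm3, the sort genes and the genes of the marker lists fall outside this rule. They were chosen after their values were seen. Alternatives were 4 scalings, 4 treatments of low signals, 3 rules for probe sets and 2 fold thresholds. The procedure was tested on simulated data. Python 3.11.15, numpy 2.4.6, pandas 2.3.3, scipy 1.17.1 and matplotlib 3.10.9 were used.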

Additional observations from a re-analysis of the deposited data

How the results depend on the processing

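A value was taken as moved when it changed by more than 0.43 on the log2 scale, the SD between probe sets of a gene (for a list median, that SD over the square root of the number of genes). Hmgn1, Hmgb2 and Hmgb3 stayed within that under every alternative that gave them a value. For Hmgn3 the sign never changed. Its brighter probe set and the gene value were 2.87 with the floor at the 75th percentile and 3.06 with a pseudocount, and the gene value was 3.02 as the mean or the median of its probe sets. Its dimmer probe set was 3.41 with the floor at the 25th percentile or with no floor and 0.66 with the floor at the 75th percentile, which shows that its size is set by the floor. The count of member genes past 2-fold was 1 under each alternative, the 1.5-fold and 3-fold thresholds included, except that it was 0 with only probe sets without a suffix, where Hmgb3 was the 1 gene left. With the floor at the 25th percentile the list medians were 0.25 for the SET and V(D)J partners and 0.14 for proliferation. That of HMGB1 receptors and export was then -0.43. More genes were measured under that floor: 8 in place of 6 for SET and V(D)J, 22 in place of 18 for proliferation and 11 in place of 7 for HMGB1 receptors. The proliferation median was 0.18 with only probe sets without a suffix, over 12 genes. These medians are therefore not over the same genes as the main ones, and other causes were not tested. Of 55 list medians under alternatives, 7 changed sign, all in the SET and V(D)J or proliferation lists. Of 74 medians of marker lists, which only check the samples, 15 moved; the macrophage list ran from 0.64 to 1.27 and never changed sign. No paired analysis was possible because each group has 1 array, and for the same reason no replicate could be left out. With no detection calls, signals near the floor, as for Hmgn3 in follicular cells, are the least certain.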
